A study of Mus musculus with 23 samples.

Results

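The basophil or mast-like cells of the KSL sort gate (c-Kit+ Sca1+ Lin-, the marrow fraction that holds stem and multipotent progenitor cells) were picked by transcript. A kept cell entered the set when it held at least 1 UMI (a unique molecular identifier, 1 counted transcript) of at least 2 of 4 markers: Ms4a2, Mcpt8, Prss34 and Fcer1a. The rule took 939 of 78945 kept cells (1.19%), 76 of them from 6 baseline libraries and 863 from 5 transplant libraries. Of these cells, 680 held 2 markers, 177 held 3 and 82 held all 4. Just outside the rule lay 9462 cells with 1 marker. The levels of the 4 markers in these cells are therefore a consequence of the choice and are given as a description.

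All mice carried the Mx1-Cre transgene, an interferon-inducible Cre that acts in blood cells and also in other tissues, and the labels record no treatment. Groups are named as in the labels: Control, Ezh2_KO (Ezh2Δ/Δ, from floxed alleles) and Jarid2_KO (Jarid2Δ/Δ, from floxed alleles). The baseline libraries came from untransplanted mice 2 months old, 1 male (replicate 1) and 1 female (replicate 2) for each genotype, and also carry counts of 6 surface antibodies. The transplant libraries hold CD45.2 donor KSL cells sorted 18 weeks after 500000 donor and 500000 CD45.1 competitor marrow cells were given to lethally irradiated recipients. There is 1 Control library, with 2 of Ezh2_KO and 2 of Jarid2_KO. The labels do not say how many mice went into a library, so the spread between libraries may be partly technical.

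Basophils and mast cells are the blood cells that carry the high-affinity receptor for IgE and release histamine and proteases when that receptor is crosslinked. Both arise from progenitors that depend on Gata2 and express interleukin-3 or stem cell factor receptors, and in mouse marrow a shared basophil and mast cell progenitor has been described close to the erythroid and megakaryocyte branch. Fcer1a encodes the IgE-binding alpha chain of the receptor and Ms4a2 its signal-amplifying beta chain. Mcpt8 and Prss34 encode serine proteases that mark mouse basophils, while connective tissue mast cells store the chymases Cma1 and Mcpt4 and the tryptases Tpsb2 and Tpsab1. Ezh2 is the methyltransferase subunit of Polycomb repressive complex 2 (PRC2) and Jarid2 an accessory subunit that helps recruit it.

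The start regions of the 4 marker genes are shown because Gata2 was among the genes that set these cells apart, and because the 4 genes did not move together between genotypes. Each is 300 bases of RefSeq sequence on GRCm38.p6, 250 bases before and 50 after the annotated start, written 5′ to 3′ on the gene's strand. Capitals mark matches to the GATA motif letters, which are AGATAA and also AGATAG as well as TGATAA and also TGATAG, on either strand (the reverse complement is in capitals where the match lies on the other strand).
Ms4a2, chr19:11623670-11623969, minus strand: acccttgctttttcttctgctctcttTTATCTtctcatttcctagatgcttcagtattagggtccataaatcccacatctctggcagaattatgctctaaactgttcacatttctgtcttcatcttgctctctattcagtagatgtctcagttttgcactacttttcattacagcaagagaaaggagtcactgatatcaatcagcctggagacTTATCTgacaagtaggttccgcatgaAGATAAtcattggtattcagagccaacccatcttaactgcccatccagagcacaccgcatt
Fcer1a, chr1:173227180-173227479, minus strand: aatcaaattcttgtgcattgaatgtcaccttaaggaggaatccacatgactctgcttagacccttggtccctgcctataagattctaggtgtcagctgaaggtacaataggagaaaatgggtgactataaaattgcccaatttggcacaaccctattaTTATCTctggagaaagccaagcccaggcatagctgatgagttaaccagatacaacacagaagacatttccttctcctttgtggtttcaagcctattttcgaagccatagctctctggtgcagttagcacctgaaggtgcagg
Prss34, chr17:25298144-25298443, plus strand: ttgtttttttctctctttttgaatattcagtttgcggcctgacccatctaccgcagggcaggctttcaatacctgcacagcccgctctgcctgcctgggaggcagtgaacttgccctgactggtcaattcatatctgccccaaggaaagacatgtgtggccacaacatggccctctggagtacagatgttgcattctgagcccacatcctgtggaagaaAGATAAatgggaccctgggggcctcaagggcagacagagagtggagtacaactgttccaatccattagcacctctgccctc
Mcpt8, chr14:56085148-56085447, minus strand: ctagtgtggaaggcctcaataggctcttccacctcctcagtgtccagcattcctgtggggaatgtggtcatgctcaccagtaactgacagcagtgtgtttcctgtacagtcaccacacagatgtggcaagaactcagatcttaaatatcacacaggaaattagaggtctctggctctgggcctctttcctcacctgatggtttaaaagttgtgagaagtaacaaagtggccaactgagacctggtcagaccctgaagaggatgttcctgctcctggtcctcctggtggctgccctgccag
Ms4a2 held 3 matches, Fcer1a 1, Prss34 1 and Mcpt8 none in this window. Among 32851 RefSeq promoters of the same length, 9778 (29.8%) held at least 1 match and 2552 (7.77%) held 2 or more. A match is a run of letters and not a measured binding site.

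The labels were checked against transcripts and the libraries against each other. A baseline library kept 7162 to 10041 cells and a transplant library 4663 to 6638, with 73238198 to 143133494 UMIs per library. Replicates of a group differed by more than counting noise (chi-square per degree of freedom 33.9 to 261), and no pair of libraries shared more than 0.443% of the smaller library's barcodes. Over all kept transplant cells Ezh2 was lower in Ezh2_KO than in Control by 2.17 on the log2 scale (−2.17, SE 0.13, edgeR quasi-likelihood FDR 0.000863), and at baseline the difference was −0.32 (FDR 0.0564). The Jarid2 transcript did not check the label: Jarid2_KO minus Control was 0.51 after transplantation (FDR 0.222) and 0.46 at baseline (FDR 0.114), where Jarid2 was 158 and 149 CPM in Control and 215 and 203 CPM in Jarid2_KO. Nor did Ezh2 check its label at baseline, where the difference did not pass. Its level there was 210 and 193 CPM in Control and 163 and 151 CPM in Ezh2_KO. Where the counted tags lie relative to the deletion was not tested. Sex is not labelled after transplantation. Xist, the transcript of the inactive X in female cells, was 0.114 and 0.157 CPM in the Ezh2_KO libraries, against 1132 CPM in Control and 1030 and 817 CPM in Jarid2_KO. The Ezh2_KO libraries thus held male cells with almost no female ones, and the other 3 held both, so sex and genotype are confounded in every transplant contrast with Ezh2_KO. Cells with a Y-linked UMI and no Xist, called male cells here, made up 18.1% of kept cells in Control, 73.7% and 68.7% in Ezh2_KO and 26.7% and 31.6% in Jarid2_KO, a share that misses male cells without such a UMI. Values from these cells alone are given where they differ. Male cells in the selected set numbered 41 in Control, 173 and 126 in Ezh2_KO and 42 and 39 in Jarid2_KO. How far a call lost in male cells reflects these smaller numbers was not tested.

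The markers bore out the name of the set in part. Genes known from both lineages were high in it: Cpa3 (mast cell carboxypeptidase A, also made by basophil progenitors) had a UMI in at least 80.0% of the selected cells of every library, against 5.04% to 7.14% of the other baseline cells and 30.8% to 39.0% of the other transplant cells. The tryptase Tpsab1 had no UMI in any library, and Tpsb2 had none in any transplant library. After transplantation the neutrophil granule genes Mpo and Elane, an azurophil peroxidase and elastase, were found in at least 99.1% and 89.0% of the selected cells of each library. The other transplant cells gave 98.2% to 99.9% for Mpo and 84.6% to 99.6% for Elane. Mcpt8 itself had a UMI in 26.1% to 31.2% of all kept transplant cells, against 0.743% to 2.68% at baseline. In cells that should lack it, those with at least 3 of 6 B-lineage markers, Mcpt8 was found in 89 of 610 (14.6%) and 67 of 440 (15.2%) transplant Ezh2_KO cells, at median depths of 15126 and 11576 UMIs. The corresponding shares of Ms4a2 in those cells were 2.30% and 1.82%, of Fcer1a 0.984% and 1.59%, and of Prss34 0.820% and 0.455%. The transplant set is therefore described here by its rule, as KSL cells with basophil or mast cell transcripts. At least 99.6% of it in each library also met a granule myeloid marker rule, as did at least 99.1% of all kept transplant cells. At baseline that rule was met by 100% and 57.9% of the selected cells in Control, 77.3% and 43.5% in Ezh2_KO and 100% and 100% in Jarid2_KO. Among all kept baseline cells it was met by 7.23% to 17.1%.

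Selected cells were rare at baseline and made up a few percent of KSL cells after transplantation. At baseline they were 0.0698% and 0.225% of kept cells in Control, 0.232% and 0.229% in Ezh2_KO and 0.0771% and 0.0133% in Jarid2_KO, from 5, 19, 22, 23, 6 and 1 cells. After transplantation they were 4.37% in Control (exact 95% interval 3.81% to 5.00%, 204 cells), 3.40% (2.98% to 3.87%, 226 cells) and 2.59% (2.22% to 3.02%, 164 cells) in Ezh2_KO, and 2.57% (2.17% to 3.03%, 140 cells) and 2.38% (1.99% to 2.82%, 129 cells) in Jarid2_KO. These intervals cover counting error only. Control was the highest transplant library and its interval overlapped that of 1 Ezh2_KO library, while the interval of the other Ezh2_KO library overlapped those of both Jarid2_KO libraries. At baseline both Ezh2_KO libraries were above both Jarid2_KO libraries.

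The genotype differences in share could not pass a test at this size. After transplantation Jarid2_KO minus Control was −1.90 percentage points, Ezh2_KO minus Control −1.38 and Jarid2_KO minus Ezh2_KO −0.524. At baseline the same differences were −0.102, 0.0831 and −0.185 points. With no limit on mitochondrial UMIs, transplant Ezh2_KO minus Control was −0.497, from 3.03% in Control and 2.88% and 2.19% in Ezh2_KO. Single libraries moved several of these: transplant Jarid2_KO minus Ezh2_KO was −0.119 without Ezh2_KO replicate 1 and −0.929 without replicate 2. Baseline Ezh2_KO minus Control was 0.161 without Control replicate 2 and 0.00560 without replicate 1, and baseline Jarid2_KO minus Control −0.0246 and −0.180. The exact two-sided permutation p was 0.667 for baseline Jarid2_KO against Control and 0.333 for the other 5, the smallest that 2 libraries against 2, or 2 against 1, can give (0.4 to 0.667 after adjustment over the 6 contrasts). The selected cells were deeper than the rest in every library: their median UMI count was 17073 to 24032 in transplant libraries against 11734 to 17366. When every cell was thinned to 3000 UMIs, the transplant shares were 1.78% in Control, 0.986% and 0.825% in Ezh2_KO and 0.529% and 0.556% in Jarid2_KO. The thinning left out 614, 250, 263, 726 and 378 shallower cells in these libraries.

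**Figure D1:**
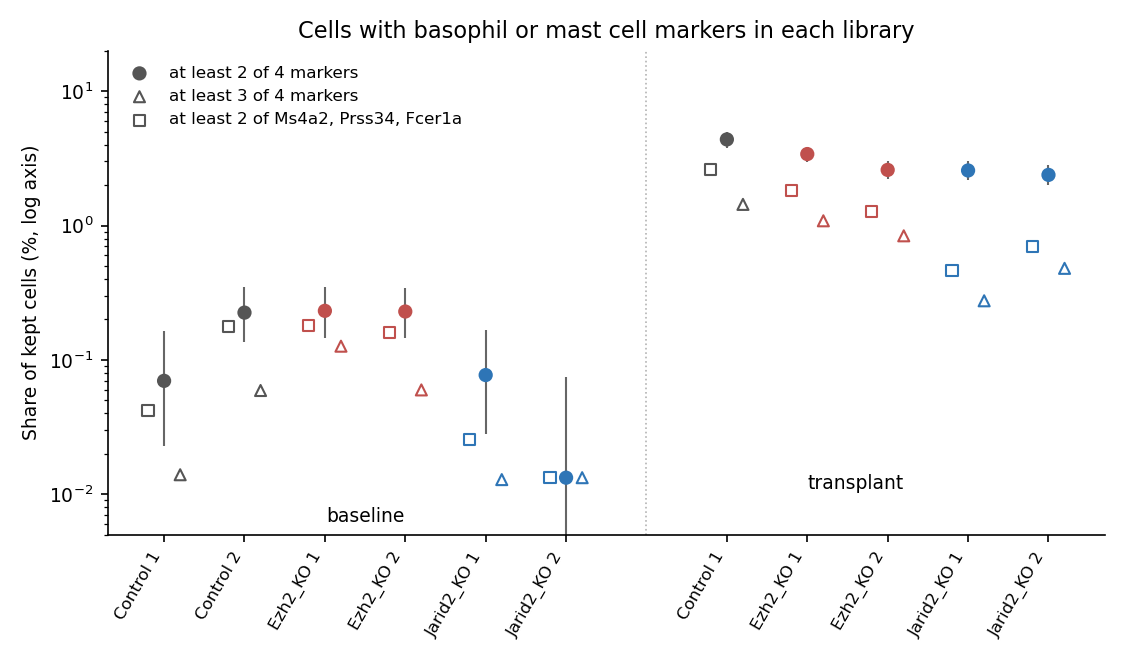
Share of kept cells (%, log axis) that carry basophil or mast cell markers, by library, with the baseline libraries left and the transplant libraries right of the dotted line. Filled circles with exact 95% intervals use the main rule, triangles need 3 of 4 markers and squares need 2 of the 3 markers other than Mcpt8; the 5 transplant libraries (2.38% to 4.37%) lie above all 6 baseline libraries (0.0133% to 0.232%).

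The share in transplant Jarid2_KO rested on Mcpt8. Cells selected by Ms4a2 and Mcpt8 alone were 76.4% and 67.4% of the set in the Jarid2_KO libraries, against 32.8% in Control and 33.2% and 36.0% in Ezh2_KO. Cells with the 2 receptor chains Ms4a2 and Fcer1a and neither protease numbered 10 and 10 in Jarid2_KO, 53 in Control and 45 and 26 in Ezh2_KO. All 4 markers were found in 0 and 3 Jarid2_KO cells, 17 Control cells and 26 and 25 Ezh2_KO cells. With at least 2 of the 3 markers other than Mcpt8 required, a rule added after the data were seen, the transplant shares were 2.62% in Control, 1.82% and 1.28% in Ezh2_KO and 0.459% and 0.702% in Jarid2_KO. With at least 3 of 4 markers required, they were 1.44%, 1.08% and 0.838%, and 0.275% and 0.480%. The Jarid2_KO libraries were lowest under both of these rules and did not overlap the others. Both rules count Fcer1a, which was low in Jarid2_KO, so this order follows in part from that marker and is a description. Cells with an Ms4a2 UMI, whatever their other markers, were 6.18% of kept cells in Control, 4.37% and 3.92% in Ezh2_KO and 4.24% and 4.36% in Jarid2_KO. By Ms4a2 alone the Jarid2_KO libraries were thus not the lowest.

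Genes that the rule did not name followed the number of markers. In the transplant libraries the level of Cpa3, in CPM (UMIs scaled to a common total of the summed cells), averaged 80.9 CPM in cells with no marker, 178 with 1, 634 with 2, 1105 with 3 and 1472 with all 4. The means are over 5 libraries up to 3 markers and over 3 libraries at 4, where both Jarid2_KO libraries drop out with fewer than 10 such cells. Hdc, the histamine-forming histidine decarboxylase, ran 21.2, 49.4, 113, 186 and 265 CPM over the same steps. Gata2 was flat at 59.0 and 51.6 CPM in cells with 0 and 1 marker, then 196, 406 and 482 CPM. Elane was 2040 CPM with no marker and 3646, 2907, 769 and 867 CPM with 1 to 4. Mpo, myeloperoxidase, another neutrophil granule gene, ran 2057, 3936, 3734, 2702 and 3303 CPM and so did not fall below its level in cells with no marker. At baseline Elane was lowest in cells with no marker, at 30.3 CPM against 523 and 371 CPM with 1 and 2 markers. The low Elane of transplant cells with 3 or 4 markers was not shared by Mpo. At baseline the steps at 3 and 4 markers had no value, so they could not be compared. At baseline Cpa3 was 10.4 CPM with no marker, 50.2 with 1 and 713 with 2, the last over 3 of 6 libraries. These steps describe the selection and were not tested.

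**Figure D2:**
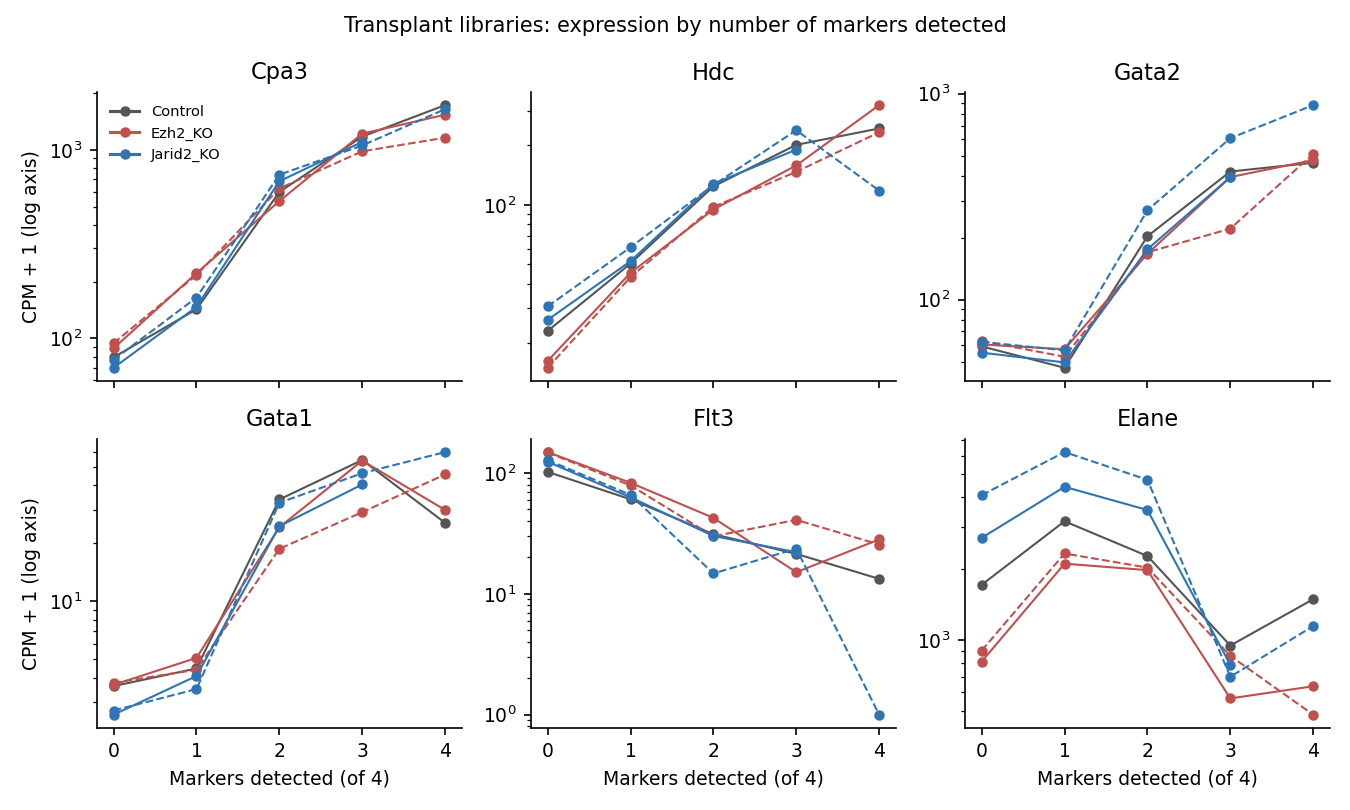
Level (CPM + 1, log axis) of 6 genes outside the rule against the number of rule markers detected in a cell, for the 5 transplant libraries (dashed lines are replicate 2). Each point sums the cells of 1 library; Cpa3, Hdc, Gata2 and Gata1 are higher in cells with 2 or more markers than in cells with none, Flt3 is lower, and Elane peaks at 1 marker; the Jarid2_KO replicate 2 points at 4 markers rest on 3 cells and Jarid2_KO replicate 1 has none.

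Against the remaining cells of the same library, 7 of 17 basophil genes and 4 of 24 transcription factor genes were higher in the selected cells, while 3 of 12 lymphoid genes and 2 of 9 monocyte and dendritic cell genes were lower. The comparison used the 8 libraries with at least 10 selected cells. A gene was counted when it differed at least 2-fold the same way in all 8, on log2(CPM + 5). Higher were 40 of 8893 genes (0.45%) and lower 18 (0.202%). With all cells thinned to 3000 UMIs the balance turned, with 60 genes higher and 75 lower over 6 libraries and a median over all genes of −0.22. This is a description, since the cells were chosen on transcripts. Of 17 basophil genes considered, 7 were counted higher (Hdc, Cpa3, Csf1, Alox5, Cyp11a1, Cd63 and Gzmb) and none lower, with a list median of 0.95 against −0.01 over all genes. With at least 3 markers required, 78 genes were counted higher (0.899% of 8679) and 24 lower (0.277%).

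Among effector genes, Cpa3 averaged 897 CPM in the selected cells and 79.1 CPM in the rest (mean log2 difference 3.91, SD 1.75). In the order Control, Ezh2_KO, Jarid2_KO it stood at 735, 752, 1177, 1349, 505 and 973 CPM at baseline and 827, 776, 766, 726 and 806 CPM after transplantation. In the remaining cells it stood at 9.56 to 14.6 CPM at baseline and 101 to 142 CPM after transplantation, so the gap to the selected cells was wider at baseline. Hdc was 103 to 422 CPM in the selected cells of all 11 libraries, against 1.01 to 2.25 CPM in the other baseline cells and 24.6 to 41.6 CPM in the other transplant cells. Alox5, the 5-lipoxygenase of leukotriene synthesis, differed by 2.99 (SD 0.87), Cyp11a1, a steroidogenic enzyme expressed in basophils, by 2.62 (SD 1.03), and Gzmb, granzyme B, by 3.49 (SD 1.00). Gzmb came from few cells: 10 of 204 in transplant Control, 25 of 226 and 13 of 164 in Ezh2_KO and 5 of 140 and 8 of 129 in Jarid2_KO held a UMI. In Ezh2_KO replicate 2 and Jarid2_KO replicate 2, 1 cell held 67.8% and 63.0% of them. The vesicular monoamine transporter Slc18a2, which loads histamine into granules, was the 1 gene of 11 on the mast list that was counted, at 117 against 29.1 CPM.

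Among receptors, Il1rl1, the interleukin-33 receptor chain of mast cells, basophils and innate lymphoid cells, averaged 73.3 CPM against 2.11 (difference 3.14, SD 0.85) and was the 1 of 15 cytokine receptor genes counted. None of 15 IgE receptor signalling genes was counted, with a list median of 0.07. At the all-gene shares of 0.45% and 0.202%, no call is near what a list of this size gives. Fcer1g, the gamma chain that the IgE receptor shares with other Fc receptors, was 142 to 350 CPM in the selected baseline cells against 50.0 to 65.2, and 156 to 181 against 98.8 to 133 after transplantation. It was higher in all 8 libraries but by less than 2-fold in some. The kinases Lyn and Syk stood in transplant libraries at 33.3 to 43.7 and 57.9 to 72.4 CPM, against 33.4 to 40.5 and 60.2 to 70.2 CPM in the rest.

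Among 24 transcription factor genes considered, Gata2, Gata1, Lmo4 and Ikzf2 were counted higher. Gata2 averaged 291 CPM against 57.0 (difference 2.23, SD 0.31) and Gata1 39.1 against 4.41 (2.22, SD 0.26). Lmo4, a LIM-only adaptor protein, averaged 587 against 74.1 CPM (2.90, SD 0.42). Csrp3, a muscle LIM protein gene, was among the genes with the largest difference outside the rule (4.42, SD 0.61, 169 against 2.40 CPM). The lymphoid genes Dntt, Ighm and Flt3 were counted lower, by −2.78, −2.77 and −2.26. So were Cd74 (−3.61) and H2-Aa (−2.43) of antigen presentation and the stem cell gene Hlf (−1.83). H2-Ab1, of the same class as H2-Aa, was not counted (−0.78, SD 0.36). No gene of the replication, mitosis or PRC2 lists was counted, and the 10 PRC2 genes had a median of −0.04.

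**Figure D3:**
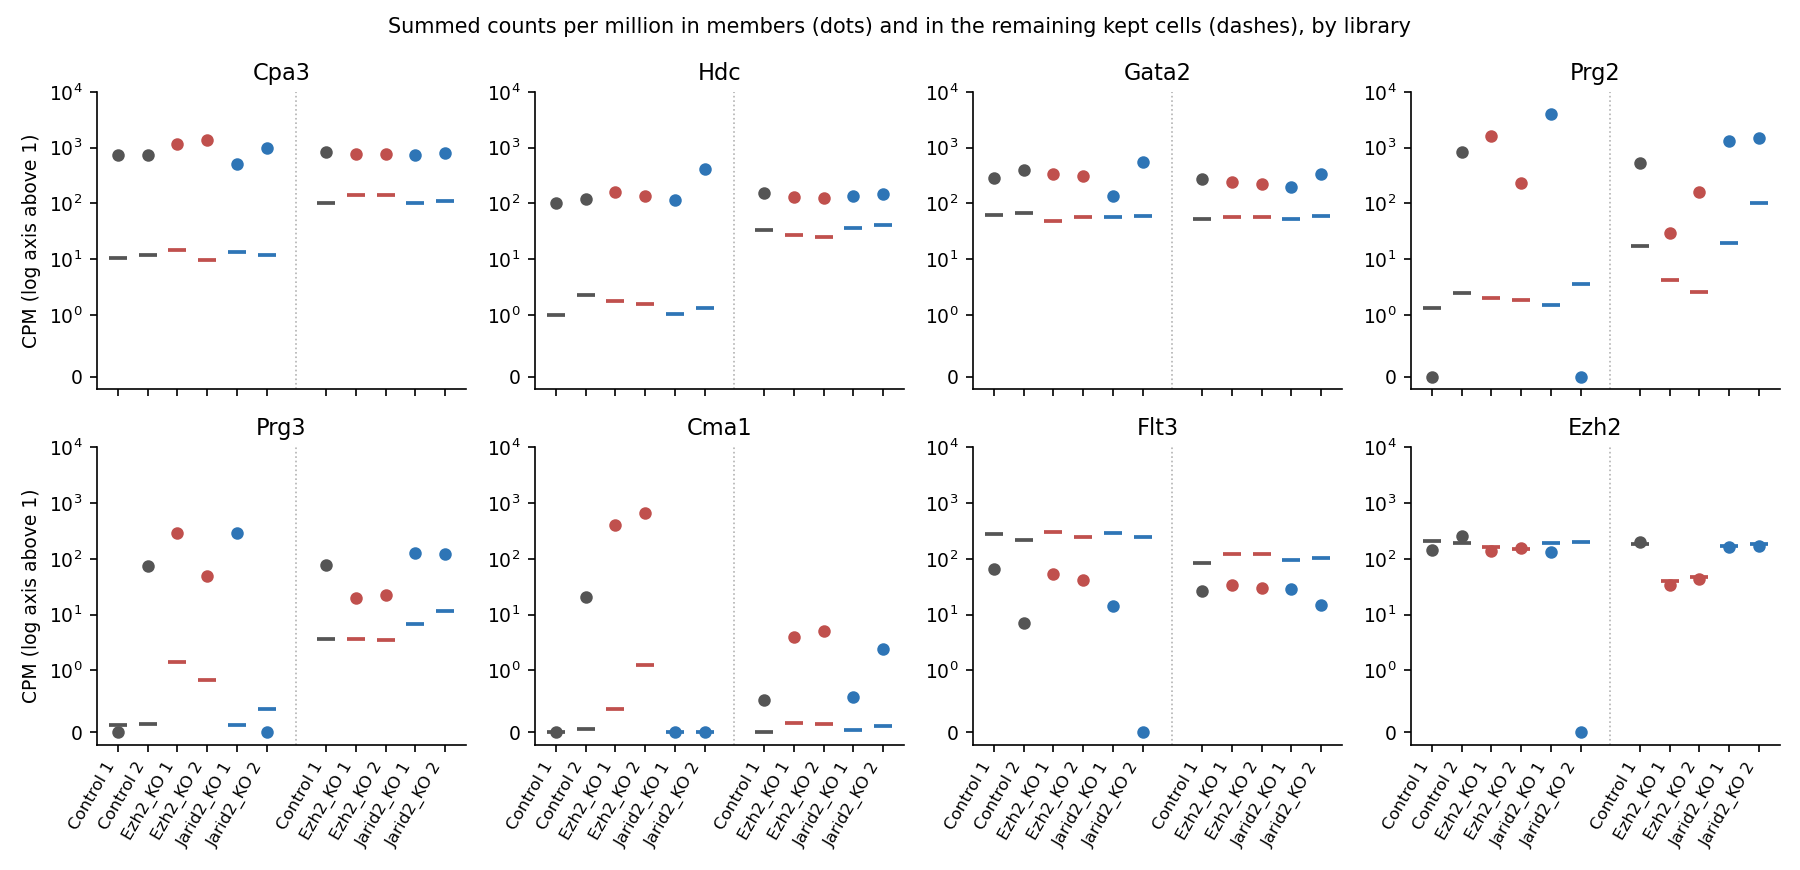
Level (CPM, log axis above 1) of 8 genes in the selected cells (dots) and in the remaining kept cells (dashes) of each library, baseline left and transplant right of the dotted line. Cpa3, Hdc and Gata2 are above the rest in all 11 libraries and Flt3 is below it; Cma1 reaches 397 and 660 CPM in the baseline Ezh2_KO libraries, and Ezh2 is low in both groups of transplant Ezh2_KO cells; baseline points of Control 1, Jarid2_KO 1 and Jarid2_KO 2 rest on 5, 6 and 1 cells.

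The set was split by the rule's own proteases, so the difference follows in part from values the rule used and is a description. In the 6 libraries with at least 10 of each, 732 cells carried Mcpt8 or Prss34 and 154 carried Ms4a2 and Fcer1a with neither protease. In the protease-positive cells 14 of 8614 genes (0.163%) were counted higher and 4 (0.0464%) lower, again with no test. Elane averaged 2394 against 361 CPM, and Cebpe, the transcription factor of granulocyte secondary granules, 152 against 15.5 CPM. Ctsg (cathepsin G) and Mpo were also counted, at 2.48 and 2.21 on the log2 scale. Among the lower genes were Mfsd2b (−1.92), a sphingosine-1-phosphate exporter of red cells and platelets, Zfpm1 (−1.52), the cofactor of Gata1, and Plxnc1 (−1.52). Megakaryocyte cells, a neighbouring branch, were kept cells outside the set with at least 2 megakaryocyte markers. Selected cells that met that rule were left out here. Against megakaryocyte cells of the same libraries, the 894 selected cells compared carried less Pf4 (platelet factor 4, −5.53) and more Hdc (3.72). In all, 55 genes were counted higher (0.616% of 8935) and 37 lower (0.414%). Both sides were chosen on transcripts, so these differences follow in part from the choice.

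Surface antibodies, which the rule did not use, differed between the selected baseline cells and the rest as shares of a cell's total. CD48 was higher, and Sca1, CD135 and CD201 were lower. Antibody UMIs of each cell were divided by the cell's total over the 6 antibodies and averaged on a log2 scale. CD48 was the largest share, at 19.4 in the selected cells and 18.4 in the rest on that scale. A larger CD48 share lowers the other shares by arithmetic. How far it accounts for the 3 lower tags was not tested. CD48, a marker gained as stem cells differentiate, was higher in the selected cells than in the rest of the same library by 1.00 (SD 0.40, n = 6, exact sign-flip permutation p = 0.03125, 0.0469 adjusted over 6 antibodies). It was higher in 6 of 6 libraries, by 1.20 and 1.13 in Control, 0.54 and 0.48 in Ezh2_KO and 1.15 and 1.49 in Jarid2_KO. Sca1, which defines the gate, was lower by 1.55 (−1.55, SD 0.58), CD135 (the Flt3 receptor) differed by −1.37 (SD 0.45) and CD201 (the endothelial protein C receptor of stem cells) by −0.77 (SD 0.43). All 3 were lower in 6 of 6 libraries, with the same exact permutation p of 0.03125 and 0.0469 adjusted, the smallest that 6 libraries can give. CD117 (the Kit receptor) differed by −0.13 (SD 0.41, adjusted exact p 0.488) and CD150 by 0.05 (SD 0.52, adjusted exact p 0.844), which is within the spread of the libraries. Other parts of the gate shared this profile in part. Of the selected cells in a baseline library, 43.5% to 100% also met the granule myeloid rule. On the log2 scale granule myeloid cells averaged 19.1 for CD48, 14.1 for CD201 and 16.9 for Sca1, against 19.4, 14.1 and 16.3 in the selected cells. Their CD135 was 14.2, against 12.9 in the selected cells and 14.3 in the rest. Erythroid and megakaryocyte cells were near the selected cells in CD135, at 13.2 and 13.3, but not in CD48, CD201 or Sca1. Their CD48 was 18.8 and 18.2, their CD201 15.2 and 15.1 and their Sca1 17.2 and 17.6. These levels are a description, and the differences between the parts were not tested.

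With at least 3 markers required, none of the 4 antibodies passed (CD48, CD135 and Sca1 adjusted exact p 0.0625, CD201 0.0938), and CD201 was then higher in 1 of 6 libraries. Without the division by the cell total, no antibody passed (exact p 0.1875 or more after adjustment) and CD201 and CD117 changed sign, to 0.0960 and 0.73. CD48 was then higher in 6 of 6 libraries, CD201 in 4, Sca1 in 2 and CD135 in 1. The per-library means rest on 1 to 23 selected cells. Between genotypes none of 18 exact permutation tests within the selected cells could go below p = 0.333, and none passed.

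**Figure D4:**
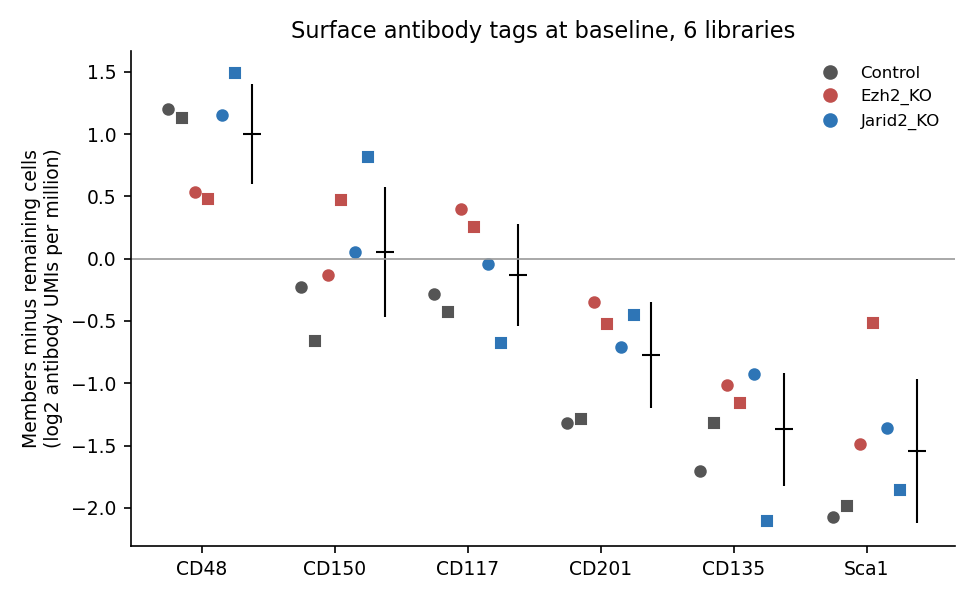
Difference in mean log2 antibody UMIs (scaled to equal totals per cell) between the selected cells and the remaining cells of each baseline library (circles male, squares female), with the mean and SD over 6 libraries in black. CD48 is above 0 in all 6 libraries, CD201, CD135 and Sca1 are below 0 in all 6, and CD150 and CD117 scatter around 0.

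Among the markers, Fcer1a was lowest in Jarid2_KO. Cells with an Ms4a2 UMI were taken as a set that does not depend on Fcer1a, a comparison added after the data were seen. After transplantation Fcer1a was found in 115 of 288 such cells in Control (39.9%, exact 95% interval 34.2% to 45.8%), in 109 of 290 (37.6%, 32.0% to 43.4%) and 69 of 248 (27.8%, 22.3% to 33.8%) in Ezh2_KO, and in 17 of 231 (7.36%, 4.35% to 11.5%) and 26 of 236 (11.0%, 7.32% to 15.7%) in Jarid2_KO. Both Jarid2_KO libraries were below the other 3, and their intervals did not reach them. These intervals cover counting error over cells and not the spread between libraries. The median depth of these cells was 22072 and 15844 UMIs in Jarid2_KO, 17216 in Control and 20650 and 15512 in Ezh2_KO.

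The same order was seen at matched depth and in male cells. With cells thinned to 3000 UMIs the shares were 27.1% in Control, 25.6% and 21.8% in Ezh2_KO and 2.17% and 8.33% in Jarid2_KO. In male cells alone they were 40.7%, 36.7% and 31.5%, and 10.1% and 12.2%. At baseline Fcer1a was found in 2 of 16 and 15 of 42 Ms4a2 cells in Control, 15 of 33 and 16 of 32 in Ezh2_KO and 1 of 12 and 1 of 13 in Jarid2_KO (12.5%, 35.7%, 45.5%, 50.0%, 8.33% and 7.69%). Transplant Jarid2_KO minus Control was −30.7 percentage points and minus Ezh2_KO −23.5. The baseline differences were −16.1 and −39.7, the first being −4.49 without Control replicate 2 and −27.7 without Control replicate 1. The exact permutation p was 0.333 for each of these 4, the smallest possible (0.4 adjusted over the 6 contrasts).

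Summed over all kept cells, Fcer1a was also fitted together with all other genes. This fit was added after the marker levels of the selected cells had been seen in the same libraries. Its FDR values for Fcer1a are therefore not independent support. The transplant Control group is 1 library, so its spread was taken here too to equal that of the knockout groups. Its level was 9.45 CPM in transplant Control, 7.92 and 5.92 CPM in Ezh2_KO and 0.823 and 1.24 CPM in Jarid2_KO. It fell in Jarid2_KO against Control by 3.26 on the log2 scale (−3.26, SE 0.25, edgeR quasi-likelihood FDR 0.0140) and against Ezh2_KO by 2.73 (−2.73, SE 0.22, FDR 0.00139). Ezh2_KO minus Control was −0.53 (SE 0.24, FDR 0.337). In a sum over all cells, fewer cells of a type and less RNA per cell cannot be told apart. The background was 52 of 15900 genes called (0.327%) for Jarid2_KO against Control, 811 (5.1%) for Ezh2_KO against Control and 2014 (12.7%) for Jarid2_KO against Ezh2_KO. The 3 counts were 7, 342 and 1257 in male cells alone and 30, 459 and 1315 with the strict cell filter, and DESeq2 gave 208 for the first. Without Ezh2_KO replicate 1 the last 2 were 404 and 908. Without Ezh2_KO replicate 2 the first was 81 and the last 1276, and without Jarid2_KO replicate 2 the first was 34. The Jarid2_KO calls of Fcer1a held in all 9 and 11 alternatives, with FDR from 2.3e-21 to 0.0406 and from 7.3e-23 to 0.00535. Outside the selected cells Fcer1a was 1.41 CPM in Control, 2.23 and 1.75 CPM in Ezh2_KO and 0.135 and 0.277 CPM in Jarid2_KO. The rule used Fcer1a to draw this division, so these levels are a description. At baseline the all-cell level was 0.185 and 1.38 CPM in Control, 1.18 and 1.30 CPM in Ezh2_KO and 0.0501 and 0.199 CPM in Jarid2_KO. There Jarid2_KO minus Control was −2.48 (SE 0.78, FDR 0.350) and minus Ezh2_KO −3.61 (SE 0.77, FDR 0.0583), and neither passed (DESeq2 gave 3.1e-05 for the second). In that contrast with Control 7 of 18357 genes were called (0.0381%), a count that was 38 without Control replicate 1, 2 without either Jarid2_KO replicate, 11 and 12 without Ezh2_KO replicate 1 and 2, 1 without the sex term and 270 with DESeq2.

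Of the proteases, Prss34 was also lower in Jarid2_KO, though from few cells, and no Mcpt8 difference from Control passed. These fits over all kept cells were likewise added after the marker levels had been seen. Prss34 was 6.09 CPM over all transplant Control cells, 5.41 and 7.94 CPM in Ezh2_KO and 0.963 and 1.51 CPM in Jarid2_KO. It was lower in Jarid2_KO than in Control by 2.36 (−2.36, SE 0.27, edgeR FDR 0.0370) and than in Ezh2_KO by 2.40 (−2.40, SE 0.23, FDR 0.00227). The first call was lost with the stricter cell filter (FDR 0.105), in male cells (0.0696) and without Jarid2_KO replicate 1 (0.0522). Few cells held Prss34: 39 in Control, 66 and 60 in Ezh2_KO and 16 and 23 in Jarid2_KO. Of its UMIs in the selected cells, 90% lay in 9, 14, 14, 4 and 8 cells in the same order. In Ms4a2 cells a Prss34 UMI was found in 9.38% in Control, 13.4% and 16.9% in Ezh2_KO and 3.46% and 6.78% in Jarid2_KO. Mcpt8 stood at 47.4, 44.7, 44.2, 39.6 and 40.0 CPM over all transplant cells, and neither knockout minus Control passed (−0.30, FDR 0.498 for Jarid2_KO and −0.17, FDR 0.513 for Ezh2_KO). Its share of Ms4a2 cells was 43.1% to 52.8%. Ms4a2 was 18.7 CPM in Control, 13.1 and 12.1 CPM in Ezh2_KO and 10.3 and 11.5 CPM in Jarid2_KO. It was lower in Ezh2_KO than in Control by 0.65 (−0.65, SE 0.12, FDR 0.0336), a call lost in 4 of 9 alternatives (FDR 0.262 with the stricter cell filter). Jarid2_KO minus Control was −0.83 (SE 0.12, FDR 0.0671).

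**Figure D5:**
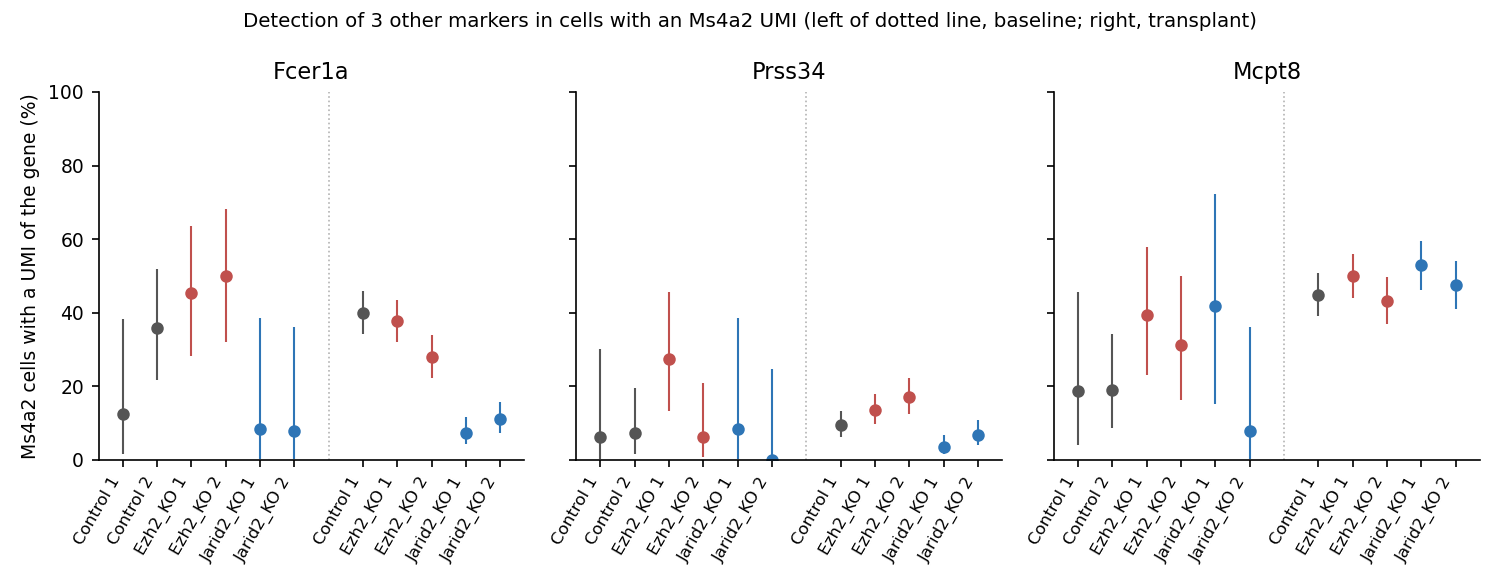
Share (%) of cells with an Ms4a2 UMI that also held a UMI of Fcer1a, Prss34 or Mcpt8, by library, with exact 95% intervals (counting error only). For Fcer1a the 2 transplant Jarid2_KO libraries (7.36% and 11.0%) lie below Control (39.9%) and Ezh2_KO (37.6% and 27.8%), while the transplant values of Mcpt8 lie together at 43.1% to 52.8%; baseline points rest on 12 to 42 cells.

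At baseline most UMIs of the mast cell proteases Cma1 and Tpsb2 were in the Ezh2_KO libraries. UMIs of the chymase Cma1 over all baseline cells numbered 0 and 12 in Control, 261 and 432 in Ezh2_KO and 0 and 0 in Jarid2_KO. The cells holding them numbered 0 and 8 in Control and 8 and 17 in Ezh2_KO, so Control replicate 2 also had such cells, with fewer UMIs. Of the Ezh2_KO UMIs, 208 and 271 were in selected cells. The tryptase Tpsb2 had 0 and 1 UMIs in Control, 44 and 143 in Ezh2_KO, in 6 and 16 cells, and none in Jarid2_KO. Of 11 mast genes tested over all baseline cells, Cma1, Mcpt4 and Tpsb2 rose and Rab27b fell in Ezh2_KO against Control. The background was 681 of 18357 genes (3.71%), a count that was 19 without the sex term, 176 without Control replicate 2 and 184 without Ezh2_KO replicate 1. The calls of Mcpt4 (FDR 0.0450) and Rab27b (−0.57, FDR 0.0478) lay close to the threshold and did not hold. Without the sex term the FDR was 0.0746 for Mcpt4 and 0.241 for Rab27b, and of the 19 genes then called 1 was lower, against 132 with the term. Mcpt4 also missed with DESeq2 (0.448), with the strict cell filter (0.0516) and without any library but Jarid2_KO replicate 2 (0.0542 to 0.0874), and Rab27b missed without Control replicate 2, either Ezh2_KO replicate or Jarid2_KO replicate 1 (0.0709 to 0.104). The edgeR FDR was 0.0379 for Cma1 and 0.0270 for Tpsb2. Both genes were at or near 0 in Control and Jarid2_KO and entered the test through the Ezh2_KO libraries. Their calls in both contrasts are therefore a description only. Both calls rested on the sex term, without which the FDR was 0.121 and 0.122, and DESeq2 gave 0.414 for Cma1. Against Jarid2_KO, where 1186 genes (6.46%) were called (87 without the sex term, 305 without Ezh2_KO replicate 1, 320 without Jarid2_KO replicate 2 and 0 without Jarid2_KO replicate 1), the FDR was 0.0268 for Cma1 and 0.0208 for Tpsb2 (0.0804 and 0.0932 without the sex term).

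The mast protease signal came from few cells. Cells with at least 2 of 5 mast genes numbered 3 and 7 among the selected cells of the baseline Ezh2_KO libraries and 1 and 6 among the rest, and 0 in every other library. How far the calls rest on these few cells was not tested. After transplantation Tpsb2 had no UMI and Cma1 had 2 UMIs in Control, 39 and 28 in Ezh2_KO and 5 and 15 in Jarid2_KO.

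Within the selected cells, transcripts could be tested between genotypes after transplantation only, since 3 of 6 baseline libraries held fewer than 10 of them. With 1 Control library, its spread is taken to equal that of the knockout groups. Jarid2_KO against Control gave 3 of 10947 genes at edgeR FDR under 0.05 (0.0274%), all lower. They are Fcer1a, whose call counts for nothing here because the rule used it, and Gm8797 and AA465934, named after their values were seen. An unadjusted p under 0.05 was reached by 535 genes, and DESeq2 called 1. Without Jarid2_KO replicate 1 the count was 71 and without replicate 2 it was 7. Ezh2_KO against Control gave 49 genes (0.448%), 30 higher (0.274%) and 19 lower (0.174%). Jarid2_KO against Ezh2_KO gave 175 genes (1.6%), 52 higher (0.475%) and 123 lower (1.12%). The Ezh2_KO against Control count was 13 without Ezh2_KO replicate 1, and 157 and 136 without Jarid2_KO replicate 1 or 2. The Jarid2_KO against Ezh2_KO count was 35 and 107 without Ezh2_KO replicate 1 or 2 and 378 without Jarid2_KO replicate 1. In male cells alone the 3 counts were 1, 1 and 31.

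With 0.0274%, 0.448% and 1.6% of all genes called in the 3 contrasts, a list of about 20 genes gives about no call, and the counts for the lineage lists are to be read against that. Of 20 basophil genes tested besides the rule markers, Jarid2_KO against Control called none (4 had an unadjusted p under 0.05 and DESeq2 called 0; median −0.18). For Ezh2_KO against Control, Ccl9, a chemokine of myeloid progenitors, passed, at 185 CPM in Control, 81.8 and 87.3 in Ezh2_KO and 110 and 149 in Jarid2_KO (−1.18, SE 0.18, FDR 0.0194). Ccl9 did not pass in male cells alone (FDR 0.286), where this contrast called 1 gene, Ezh2, nor without Ezh2_KO replicate 1 or 2 (0.342 and 0.188), without Mcpt8 in the rule (0.101), with at least 3 markers (0.106) or above a mean of 50 CPM (0.108). For Jarid2_KO against Ezh2_KO, Hgf, hepatocyte growth factor, passed (1.11, SE 0.19, FDR 0.0185), but not in male cells alone (FDR 0.317), with DESeq2 (0.160), without Ezh2_KO replicate 1 or 2 (0.264 and 0.0628), without Mcpt8 in the rule (0.0684) or with at least 3 markers (0.171). Cpa3 differed by −0.16 in Jarid2_KO and −0.15 in Ezh2_KO from Control (edgeR FDR 0.977 and 0.870), and Gata2 by −0.10 and −0.27 (FDR 0.981 and 0.796). None of 8 mast genes, 16 IgE receptor signalling genes or 17 cytokine receptor genes passed in any of the 3 contrasts by edgeR or DESeq2. The genes of these lists with an unadjusted p under 0.05 numbered 0, 2 and 2 for Jarid2_KO against Control, 3, 2 and 6 for Ezh2_KO against Control and 6, 3 and 6 for Jarid2_KO against Ezh2_KO. The 15 replication and 15 mitosis genes gave none either (0 and 0, 1 and 0, and 4 and 3 unadjusted; 0 by DESeq2).

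Of 10 granule myeloid genes tested within the set, 4 rose in Jarid2_KO against Ezh2_KO: Elane, Gstm1, Ms4a3 and Cebpe. The list median was 0.70 against 0.00 over all genes, of which 0.475% were called higher. The compared sets hold different mixes of cells: those selected by Ms4a2 and Mcpt8 alone were 76.4% and 67.4% of the Jarid2_KO set and 33.2% and 36.0% of the Ezh2_KO set, and protease-positive cells carried more Elane and Cebpe in the split above. Without Mcpt8 in the rule the Elane difference was 0.35 (edgeR FDR 0.604) and with at least 3 markers 0.17 (FDR 0.842), so the call did not hold. Cebpe did not pass under either rule (FDR 0.0821 and 0.431). Gstm1 and Ms4a3 passed without Mcpt8 (FDR 0.00619 and 0.0488) but not with at least 3 markers (0.0679 and 0.185). Under these rules the contrast called 35 of 9888 and 24 of 9198 genes tested, as separate counts, against 175 of 10947. Elane was 1888 CPM in Control, 1547 and 1582 in Ezh2_KO and 3236 and 3965 in Jarid2_KO (1.19, SE 0.18, edgeR FDR 0.00993). In the remaining cells it ran 2299, 1335, 1436, 3417 and 4923 CPM in the same order, so the cells outside the set showed the same order. Cebpe was 103, 88.2, 115, 176 and 212 CPM (0.93, SE 0.16, FDR 0.0186). None of the 10 passed for Jarid2_KO against Control (3 unadjusted, 0 by DESeq2) or for Ezh2_KO against Control (2 unadjusted, 0 by DESeq2).

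Of 5 eosinophil genes tested within the set, Prg2 and Prg3 rose in Jarid2_KO against Ezh2_KO (list median 2.26; 0.475% of all genes higher), and Prg3 fell in Ezh2_KO against Control (0.174% lower). Prg2 encodes eosinophil major basic protein, which basophils also make, Prg3 its homologue and Epx eosinophil peroxidase. Within the set Prg3 was 77.1 CPM in Control, 19.9 and 22.8 in Ezh2_KO and 130 and 123 in Jarid2_KO. Jarid2_KO was above Ezh2_KO by 2.57 (SE 0.16, edgeR FDR 3.2e-05), and Ezh2_KO was below Control by 1.91 (−1.91, SE 0.19, FDR 0.00169). Prg2 was 544, 29.3, 160, 1312 and 1519 CPM in the same order and rose in Jarid2_KO against Ezh2_KO (3.94, SE 0.57, FDR 0.00764). These sums rested on few cells: Prg2 was found in 22, 12, 9, 20 and 28 cells, and 7, 3, 2, 7 and 8 of them held 90% of its UMIs. In the Ezh2_KO libraries 1 cell held 78.8% and 85.4%. Epx (2.26, FDR 0.111), Siglecf (0.44, FDR 0.291) and Il5ra (0.62, FDR 0.697) did not pass for Jarid2_KO against Ezh2_KO. With at least 3 markers required, neither Prg3 in Ezh2_KO against Control (FDR 0.214) nor Prg2 in Jarid2_KO against Ezh2_KO (3.20, FDR 0.230) passed. In male cells the Prg3 differences were not called either (FDR 0.806 and 0.0874).

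Cells with at least 2 of Prg2, Prg3 and Epx were 6.86% of the set in Control, 3.54% and 3.66% in Ezh2_KO and 8.57% and 14.7% in Jarid2_KO. Outside the set they were 0.381%, 0.390%, 0.260%, 0.942% and 1.32%. Over all kept cells Prg2 (3.88, SE 0.37, edgeR FDR 0.00213) and Prg3 (1.60, SE 0.12, FDR 0.00113) were higher in Jarid2_KO than in Ezh2_KO. Against Control they were lower in Ezh2_KO, Prg2 by 2.77 (−2.77, FDR 0.0154), Prg3 by 0.88 (−0.88, FDR 0.0258) and Epx by 2.58 (−2.58, FDR 0.0261). In male cells alone these 3 differences from Control were −1.27 (FDR 0.193), −0.12 (FDR 0.903) and −0.13 (FDR 0.962), and none passed. At baseline Prg3 stood the other way round over all cells: Jarid2_KO minus Ezh2_KO was −1.91 (edgeR FDR 0.110) and Ezh2_KO minus Control 2.86 (FDR 0.0711), and neither passed. The Jarid2_KO minus Ezh2_KO difference after transplantation (1.60) thus exceeded that at baseline by 3.50 (SE 0.54, edgeR FDR 0.0130), in a fit that called 927 of 19076 genes (4.86%).

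B-lineage transcripts set the Ezh2_KO cells apart within the set, beside a like difference outside it. Of 13 lymphoid genes tested, Cd79a, Vpreb3 and Ebf1 rose in Ezh2_KO against Control, where 0.274% of all genes were called higher. These 3 genes were at or near 0 in the Control set and entered the test through the Ezh2_KO libraries, so the count is a description only. Over 10 alternatives, male cells among them, the lowest Ezh2_KO minus Control difference was 7.90 for Cd79a, 7.61 for Ebf1 and 5.18 for Vpreb3. Vpreb3, a B-lineage gene, was 0.263 CPM in Control, 29.1 and 15.7 in Ezh2_KO and 0.576 and 0.409 in Jarid2_KO. In the remaining cells it was 1.58, 109, 72.4, 6.72 and 6.82 CPM. Ebf1, the early B-cell factor, had no UMI in the Control set and stood at 21.6 and 17.2 CPM in Ezh2_KO (FDR 0.00259), against 103 and 73.7 CPM in the remaining Ezh2_KO cells. B-lineage cells, with at least 2 of 6 markers, were 2.45% of the set in Control, 20.8% and 16.5% in Ezh2_KO and 9.29% and 6.20% in Jarid2_KO. Among all kept cells they were 3.17%, 22.7%, 16.6%, 5.65% and 5.91%. Predicted doublets made up 5.88%, 9.73%, 7.93%, 7.14% and 4.65% of the set in the same order, against 6.66% to 7.28% of the rest. In male cells alone none of the 3 genes passed against Control (FDR 0.458 to 0.566). With doublets removed Cd79a no longer passed against Control (FDR 0.156), and the part of doublets in these genes was otherwise not tested.

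Outside the lineages, Hmga2, Bex4 and Ncam1 were highest in the Ezh2_KO libraries of the set. Hmga2, a chromatin protein of fetal stem cells, was 2.63 CPM in Control, 35.7 and 37.6 in Ezh2_KO and 10.4 and 7.78 in Jarid2_KO (3.73 for Ezh2_KO against Control, SE 0.34, edgeR FDR 0.00101). Bex4 was 1.58, 40.3, 36.7, 1.15 and 0 CPM (4.54, SE 0.45, FDR 0.00180), with 2.81, 34.6, 30.8, 0.728 and 0.919 CPM in the remaining cells. Ncam1, a neural adhesion molecule, was 6.32, 47.7, 52.4, 2.88 and 4.09 CPM and fell in Jarid2_KO against Ezh2_KO (−3.86, SE 0.23, FDR 2.6e-05). In the rest Ncam1 was 4.54, 23.3, 21.9, 3.31 and 3.86 CPM. Genes were named only where the contrasted groups did not overlap, so this separation follows from the choice. Over 12 alternatives, male cells among them, the lowest Ezh2_KO minus Control difference was 3.43 for Hmga2 and 3.73 for Bex4. Bex4 was near 0 in the Control and Jarid2_KO sets and entered the test through the Ezh2_KO libraries, so its calls are a description only. In male cells alone the Ezh2_KO against Control calls of Hmga2 and Bex4 did not pass (FDR 0.286 and 0.333), while Bex4 and Ncam1 still passed for Jarid2_KO against Ezh2_KO (FDR 0.0210 and 0.0185).

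The targeted genes were read in the set as well. Ezh2 was 199 CPM in the transplant Control set, 34.4 and 43.5 in Ezh2_KO and 161 and 167 in Jarid2_KO, lower in Ezh2_KO than in Control by 2.41 (−2.41, SE 0.18, edgeR FDR 0.000265). It held its call in all 13 alternatives (FDR at most 0.0195). At baseline Ezh2 in the set was 142 and 259 CPM in Control, 136 and 156 in Ezh2_KO and 135 and 0 in Jarid2_KO, the last from 1 cell. Jarid2 was 34.7, 35.1, 39.4, 53.5 and 44.6 CPM in the transplant set. Of 12 PRC2 genes tested, Ezh2 was the 1 that passed in either contrast with Ezh2_KO, and none passed for Jarid2_KO against Control (1 unadjusted, 0 by DESeq2). Other genes that were lower in the Ezh2_KO set than in Control were Cuedc1 (−1.44), Ffar2 (−1.31), a short-chain fatty acid receptor, and H2-Oa (−1.22). Of these, each lost its call in 5 or 6 of 12 alternatives. In Jarid2_KO against Ezh2_KO, Igkc (4.73) and Mrgpra2b (1.98) were higher, and Igkc stood far higher outside the set (632, 70.8, 0.163, 851 and 1633 CPM) than in it (11.3, 1.24, 0, 16.7 and 27.4 CPM).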

How the data were processed

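Single-cell 3′ RNA libraries of sorted mouse KSL cells (6 baseline, 5 transplant) were analysed; CUT&Tag samples were not used here. The authors deposited UMI counts per gene and cell barcode, made with Cell Ranger 7.2.0 (baseline) and 6.1.2 (transplant) per the file headers; the submitters' processing notes name Cell Ranger 3.1.0, Seurat 3.0, Partek and mm10. The baseline matrices also hold deposited counts of 6 antibodies. The matrices list 32285 genes.

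Barcodes with at least 1000 UMIs, 500 genes and at most 10% mitochondrial UMIs were kept (78945 of 97066). Doublets were scored with Scrublet and kept, with removal as an alternative. UMIs were summed per library and tested with edgeR 4.0.16 (quasi-likelihood, Benjamini-Hochberg FDR under 0.05), with sex as a term at baseline; DESeq2 1.42.0 was an alternative. Within the selected cells, libraries with fewer than 10 of them were left out. Shares were compared by exact permutation tests over libraries, and antibodies by exact sign flips, both two-sided. Intervals are exact binomial at 95%. Descriptive differences used log2(CPM + 5) and a 2-fold threshold in every library. Genes named outside the lists were, for descriptions, up to 10 per direction with the largest difference and, for edgeR contrasts within the set, up to 5 per direction with the largest fold change, each with at least 10 CPM, an established symbol and, for edgeR, groups that do not overlap. The procedures were tested on simulated data. The members and gene lists were chosen with earlier results of these data known. Labels separate baseline libraries by sex only, so p-values measure the spread between these libraries.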

Additional observations from a re-analysis of the deposited data

Results flagged for a closer look

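Several genotype differences over all kept cells differed between the transplant and the baseline experiment, by the interaction term of one edgeR quasi-likelihood fit over both (157 of 19076 genes, 0.823%, for Ezh2_KO minus Control, and 927 genes, 4.86%, for Jarid2_KO minus Ezh2_KO). For Prg3, an eosinophil granule protein gene, the Ezh2_KO minus Control difference was 2.86 at baseline and −0.88 after transplantation, a change of −3.72 on the log2 scale (SE 0.63, FDR 0.0466). Its Jarid2_KO minus Ezh2_KO difference was −1.91 at baseline and 1.60 after transplantation, a change of 3.50 (SE 0.54, FDR 0.0130). The signs are opposite in the experiments, and the baseline values did not pass by themselves (FDR 0.0711 and 0.110). Over all kept cells, which this fit used, Prg3 was held by 10, 13, 124, 80, 11 and 12 baseline cells and 113 to 246 in each transplant library. Selected cells among them numbered 0, 1, 4, 2, 1 and 0 at baseline and 10 to 24 in each transplant library. In the baseline Ezh2_KO libraries 150 of 350 and 20 of 131 Prg3 UMIs were in selected cells. For Ezh2 the corresponding values were −1.85 (SE 0.14, FDR 0.00195) and 1.79 (SE 0.13, FDR 0.000805). Cma1 also passed for Jarid2_KO minus Ezh2_KO (9.43, SE 1.62, FDR 0.0254). Both baseline Jarid2_KO libraries held 0 UMIs of Cma1, so that size is set against a count of 0. For Fcer1a no such difference passed (−0.74, FDR 0.923 for Jarid2_KO minus Control). The experiments also differ in the software version of the deposited matrices in transplantation and, for Ezh2_KO, in sex, and these cannot be told apart.

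The transplant matrices, which come from libraries described without antibodies, hold antibody counts. CD48 UMIs over all kept cells were highest in Ezh2_KO replicate 2, at 127, with 64 in Control, 84 in Ezh2_KO replicate 1 and 72 and 79 in Jarid2_KO.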

How the results depend on the processing

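The direction of the share of selected cells was the same in all 59 alternatives, though its size was not: leaving out 1 library moved transplant Jarid2_KO minus Ezh2_KO (−0.524) to −0.119 or −0.929 and baseline Ezh2_KO minus Control (0.0831) to 0.00560 or 0.161. With no limit on mitochondrial UMIs transplant Ezh2_KO minus Control (−1.38) was −0.497. The direction of the Fcer1a share of Ms4a2 cells was the same in all 41, with baseline Jarid2_KO minus Control (−16.1) between −27.7 and −4.49. The number of genes called within the transplant set was not stable. For Jarid2_KO against Control (3 genes) it was 1 with DESeq2, 46 with no low-count filter, 0 at a mean of at least 50 CPM, 0 with at least 3 markers, 0 with the strict cell filter, 1 in male cells, 0 without Mcpt8 in the rule, and 3 to 71 leaving out 1 library. For Ezh2_KO against Control (49 genes) it was 27, 289, 3 and 10 under the first 4 of these, 1 in male cells and 13 to 157 leaving out 1 library. For Jarid2_KO against Ezh2_KO (175 genes) it was 72, 635, 17 and 24, then 88 with the strict filter, 31 in male cells, 35 without Mcpt8 and 35 to 378 leaving out 1 library. The count past 2-fold against the rest (58) was 102 with at least 3 markers and 135 after thinning. Of the antibodies, with at least 3 markers CD48 gave 1.01, CD201 −0.84, CD135 −1.08, Sca1 −1.68 and CD150 −0.39, and no antibody passed (smallest adjusted exact p 0.0625). Without division by the total they gave 1.86, 0.0960, −0.49 and −0.67 for the first 4, and 0.73 for CD117. Leaving out 1 library gave 0.90 to 1.10, −0.86 to −0.66, −1.46 to −1.22 and −1.75 to −1.44 for CD48, CD201, CD135 and Sca1, where 5 libraries cannot go below p = 0.0625 (exact). CD150 ran from −0.0989 to 0.20, and turned to −0.0305 without Ezh2_KO replicate 2 and −0.0989 without Jarid2_KO replicate 2. With the replicate block, Jarid2_KO against Ezh2_KO gave 236 genes; same-numbered libraries did not deviate together (r = −0.00835 over 10947 genes), so the numbers do not pair them. Tests within the baseline set, and their interaction, were not run because 3 libraries held enough cells. The rule without Mcpt8, the fits over all kept cells and the Ms4a2 comparison were chosen after seeing the data. Fewer genes were tested at 50 CPM and fewer cells under the stricter rules; for the other shifts the cause was not tested.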
